A study of Penicillium oxalicum with 12 samples.

Results

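The genes described here are 115 genes of the filamentous fungus *Penicillium oxalicum*, of 9909 listed in at least 1 library. Their transcripts were abundant in wild-type (WT) mycelium in cellulose medium and several-fold lower in glucose medium. In 2 of the 3 cellulose libraries labelled Δ*Podot1* these genes kept a similar or higher level. They were chosen on FPKM, the fragments per kilobase of transcript scaled to the number of mapped reads, with a gene that a library does not list taken as 0. The induction ratio of a gene is its mean FPKM plus 1 in WT in cellulose over its mean FPKM plus 1 in WT in glucose. A member had an induction ratio of at least 8, a WT mean in cellulose of at least 20 FPKM, and an FPKM of at least 2/3 of that mean in each of replicates 1 and 3 labelled Δ*Podot1* in cellulose. Genes in a run of 3 or more consecutive gene numbers with such a ratio were left out, and so were 16 genes dropped by name. The ratio was at least 8 in 547 genes, of which 481 reached 20 FPKM and 368 were left after the runs and the named genes were removed. Of these 368, 115 met the 2/3 minimum and are the members, and 253 did not and are called the other induced genes.

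A fungus that grows on cellulose takes up short sugars such as cellobiose, which extracellular cellulases release, through sugar transporters of the major facilitator superfamily. In filamentous fungi the genes for cellulases and for such transporters are held down by glucose through carbon catabolite repression and are switched on together when cellulose is the carbon source. *Podot1* encodes the histone methyltransferase of lysine 79 on histone H3, a mark that lies along the bodies of transcribed genes in yeast and animals.

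The study profiled RNA of WT strain 114-2 and of the deletion strain Δ*Podot1* in 2 media, with 3 biological replicates in each of the 4 groups. In Δ*Podot1*, made in the 114-2 background, the coding region of *Podot1* (PDE_07484) is replaced by the hygromycin resistance gene *hph*. The groups are the libraries labelled Δ*Podot1* in cellulose, WT in cellulose, Δ*Podot1* in glucose and WT in glucose. The carbon sources were 1% cellulose with 1% wheat bran in the cellulose medium and 2% glucose in the glucose medium, and mycelium was collected 24 h after transfer at 30°C.

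The label of the cellulose libraries does not match their *Podot1* reads. *Podot1* had 33.4, 58.4 and 0 FPKM in replicates 1, 2 and 3 labelled Δ*Podot1* in cellulose, against 36.4, 28.8 and 28.2 FPKM in WT in cellulose. In glucose it had 0, 0.10 and 0.19 FPKM in Δ*Podot1*, against 31.7, 25.8 and 29.0 FPKM in WT. Only replicate 3 of the cellulose group thus lacks transcripts of the deleted gene. Replicate 2 also stood apart in its profile, by the mean correlation of log2(FPKM + 1) over 9274 genes. This correlation was 0.90 with the Δ*Podot1* glucose libraries and 0.86 with the WT glucose libraries. For replicate 2 it was 0.57 with the WT cellulose libraries and 0.65 with the other 2 libraries of its own label. The transcript of the glycolytic enzyme glyceraldehyde-3-phosphate dehydrogenase (PDE_09952) had 3892 FPKM in that library, 590 to 1387 FPKM in the other 5 cellulose libraries and 1612 to 3912 FPKM in the 6 glucose libraries. The total count per library was 4607764 to 7081689. In bulk mycelium, less of a transcript per cell and fewer cells that hold it cannot be told apart.

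The members' median FPKM was 202, 9.52 and 151 in replicates 1, 2 and 3 labelled Δ*Podot1* in cellulose and 58.6, 73.2 and 109 in WT in cellulose. In glucose the median was 6.39, 7.16 and 4.87 FPKM in Δ*Podot1* and 3.63, 3.35 and 3.51 FPKM in WT. Replicates 1 and 3 of the labelled cellulose group were thus above the WT cellulose libraries in the median member, and replicate 2 lay near the glucose libraries. The high levels in WT in cellulose, the lower levels in WT in glucose and the floor in replicates 1 and 3 are what the choice of members asked for and carry no test.

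**Figure D1:**
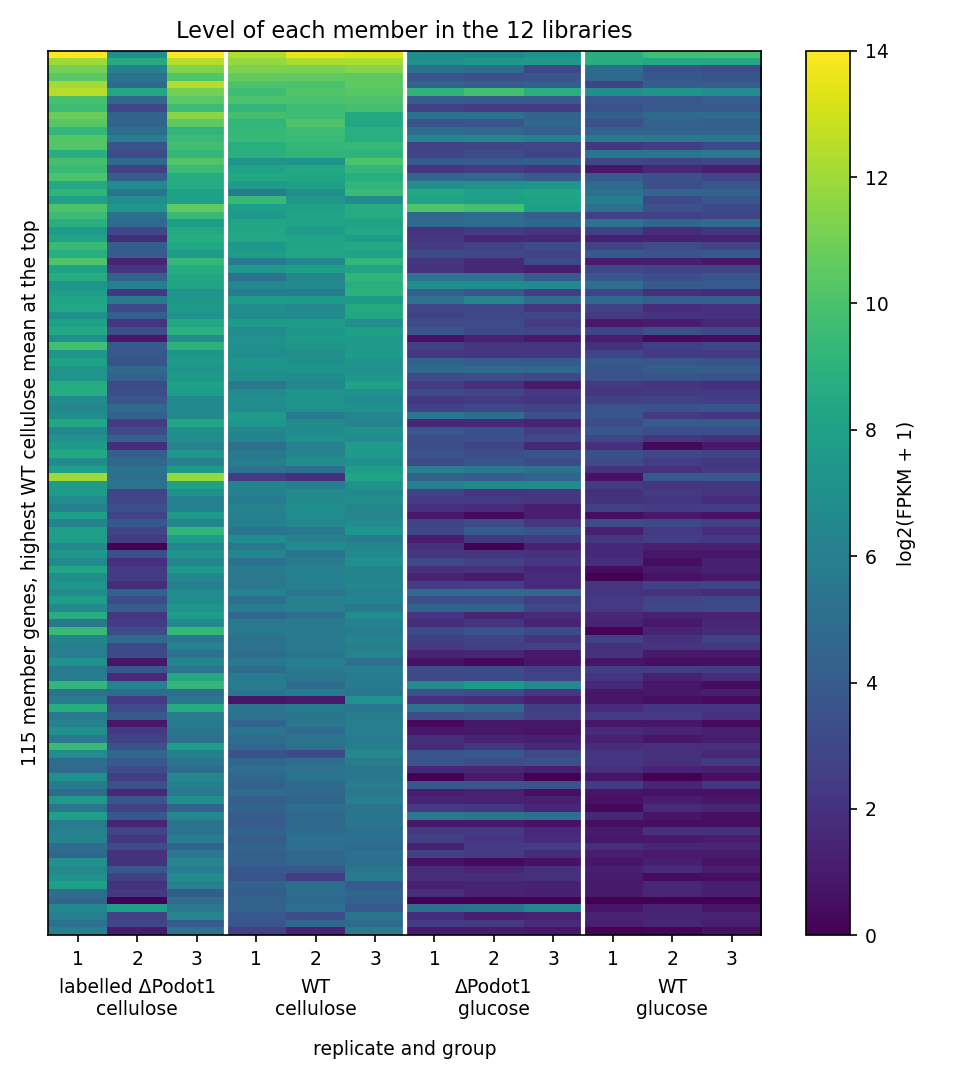
Level of the 115 members, as log2(FPKM + 1), in the 12 libraries, with 1 row per gene ordered by the WT mean in cellulose and 3 columns per group. Replicate 2 labelled Δ*Podot1* in cellulose has a median of 9.52 FPKM and looks like the glucose columns, while replicates 1 and 3 have medians of 202 and 151 FPKM.

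The most abundant member was PDE_09832, a short gene whose only annotation is structural molecule activity. It had 25539, 116 and 19437 FPKM in the Δ*Podot1*-labelled cellulose libraries, against 5168, 11819 and 9915 FPKM in WT in cellulose. In glucose it had 121, 93.2 and 147 FPKM in Δ*Podot1*, against 448, 826 and 875 FPKM in WT. Replicates 1 and 3 thus exceeded every WT cellulose library, while in glucose every Δ*Podot1* library lay below every WT library. PDE_05075, a hypothetical protein, came next, with 4105, 385 and 5460 FPKM in the Δ*Podot1*-labelled cellulose libraries and 3481, 4921 and 4863 FPKM in WT. PDE_03990, which has no annotation in the sources used here, had 2125, 66.3 and 2530 FPKM in the Δ*Podot1*-labelled cellulose libraries and 2446, 2358 and 2855 FPKM in WT. For both genes replicates 1 and 3 were within 1.3 times the WT mean in either direction, and replicate 2 was below every WT library. PDE_03044 (1391, 36.8 and 1188 FPKM in the Δ*Podot1*-labelled libraries, 1596, 1540 and 1428 FPKM in WT), PDE_00579 (955, 25.1 and 1443 FPKM, WT 1030, 1010 and 1109 FPKM) and PDE_05527 (790, 6.88 and 772 FPKM, WT 591, 813 and 948 FPKM) likewise had replicates 1 and 3 near the WT values and replicate 2 far below them. The hypothetical protein PDE_06715 had 5690, 326 and 2184 FPKM in the Δ*Podot1*-labelled cellulose libraries, against 795, 1190 and 1311 FPKM in WT. In glucose it had 550, 893 and 475 FPKM in Δ*Podot1* and 119, 151 and 106 FPKM in WT, with every Δ*Podot1* library above every WT library.

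The largest induction ratio, 178, was that of PDE_01261, with 282, 353 and 607 FPKM in WT in cellulose and 0.84, 2.02 and 1.15 FPKM in WT in glucose. PDE_03990 (139), PDE_04665 (120), PDE_08879 (115), PDE_03294 (107) and PDE_05532 (88.9) followed. None of these 6 has an annotation in the sources used here. PDE_04665 rests largely on 1 library, with 52.7, 89.7 and 613 FPKM in WT in cellulose, while PDE_03294 was even, at 132, 199 and 181 FPKM. In replicate 2 labelled Δ*Podot1* in cellulose these 6 genes had 0.92 to 66.3 FPKM. Over all members the induction ratio had a median of 19.0 and the WT mean in cellulose a median of 91.0 FPKM, and 7 members had a WT mean of at least 1000 FPKM.

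Members just inside the thresholds were close to genes left outside. The lowest induction ratios inside were 8.12 for PDE_04474, 8.45 for PDE_08082 and 8.48 for PDE_04181, and the nearest outside were 7.95 for PDE_05299, 7.92 for PDE_07621 and 7.88 for PDE_07433. For the WT mean in cellulose, PDE_01779 (21.2 FPKM), PDE_00611 (21.3 FPKM) and PDE_02418 (21.7 FPKM) were inside, and PDE_05713 (18.8 FPKM), PDE_08904 (18.8 FPKM) and PDE_01433 (18.7 FPKM) outside. For the lower of the ratios of replicates 1 and 3 to the WT mean, PDE_06153 (0.674), PDE_07091 (0.679) and PDE_07838 (0.686) were inside, and PDE_03262 (0.662), PDE_09970 (0.657) and PDE_00021 (0.654) outside.

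Membership leaned on single WT libraries for some genes. In 17 of the 115 members the highest WT cellulose library was at least 3 times the next, and in 16 of these it was replicate 3. Without that library the rule gave 114 genes, of which 95 were among the 115, so that 20 members were not found. The sugar transporter gene PDE_03475, described with the other transporters, is 1 of these 20, and so is PDE_01779, with 5.64, 1.65 and 56.3 FPKM in WT in cellulose. The abundant member PDE_06715 is also among them. When the 2/3 minimum was asked of replicate 3 alone, the Δ*Podot1* library without *Podot1* reads, 128 genes met the rule and the 115 were all among them.

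In cellulose, Δ*Podot1*-labelled replicates 1 and 3 were above the WT mean in the median member, where the rule asked for at least 2/3 of it. These medians are taken over genes kept by a floor on the same values, so they are a description. The ratio to the WT mean had a median of 1.74 in replicate 1, with a range of 0.703 to 40.6, and a median of 1.44 in replicate 3, with a range of 0.674 to 35.6. Replicate 1 exceeded every WT cellulose library in 68 of the 115 members (43.8% of all 9274 genes that averaged 1 FPKM or more did so), and replicate 3 in 64 (37.4% of all genes). Nothing is read from these counts, since the rule kept genes by these same values. The 6 members with at least 4 times the WT mean in both libraries were the transporter genes PDE_03475 and PDE_08035, the ammonia-lyase gene PDE_05640, and PDE_08880, PDE_01119 and PDE_06466, the last of which is outside the rule for named genes and was picked for its value.

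**Figure D2:**
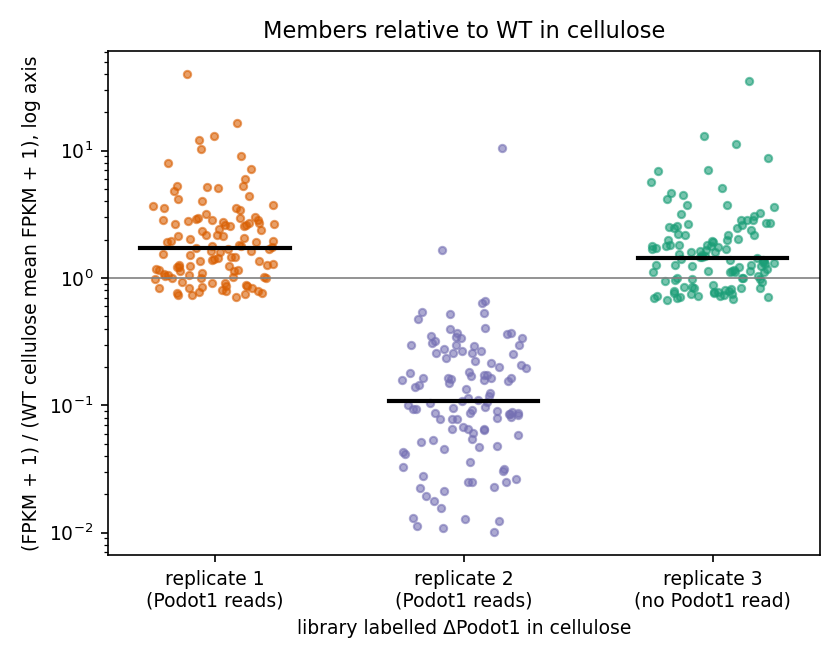
FPKM plus 1 of each of the 115 members in each library labelled Δ*Podot1* in cellulose, over the WT cellulose mean plus 1, on a log axis, with 1 point per gene and a black bar at the median. Replicates 1 and 3 lie mostly above 1, in members kept by a floor of 2/3 of the WT mean in these same libraries. In replicate 2 only 2 members reached 2/3 of the WT mean.

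Replicate 2, which the rule did not use, gave another picture. Its ratio to the WT mean had a median of 0.0942 and a range of 0 to 10.8, and 107 of the 115 members were below every WT cellulose library, against 36.8% of all 9274 genes. Among the other induced genes the median was 0.0578 and 250 of 253 were below, and in both lists the rule had chosen high WT values. Set against the Δ*Podot1* glucose libraries, 68 members were above every one of them, 59.1% against 48.5% of all genes, and 21 were below every one, 18.3% against 21.0% of all genes. The other induced genes gave 67.2% above and 9.09% below. With 1 library there is no replicate check on these counts. Only 2 members reached 2/3 of the WT mean in replicate 2, and both also had the largest log2 fold changes between the strains in glucose, given further on. PDE_08905, a hypothetical protein, had 92.9, 241 and 46.4 FPKM in the Δ*Podot1*-labelled cellulose libraries, against 19.98, 33.8 and 13.0 FPKM in WT. PDE_01119 had 614, 77.7 and 615 FPKM, against 59.5, 29.4 and 50.8 FPKM in WT. All 3 labelled libraries were above all WT libraries for both genes. The next highest ratios in replicate 2 were 0.648 for PDE_01388, at 30.1 FPKM, and 0.627 for PDE_03897, at 24.0 FPKM.

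Within the strains, the response to cellulose can be given only as a description, since the rule used it. In WT, cellulose against glucose, 113 of 114 members tested were called higher (edgeR's quasi-likelihood test, Benjamini-Hochberg adjusted p under 0.05 and at least 2-fold), against 21.4% of all genes tested. The exception was PDE_03475, at a log2 fold change of 3.02 ± 1.67 (SE, n = 3 per group, edgeR adjusted p = 0.16), and PDE_05653 did not pass the filter on low counts, with 6, 9 and 1257 counts in WT in cellulose. In the libraries labelled Δ*Podot1*, cellulose against glucose, 4 of 108 members tested were called higher (1.41% of all genes tested), namely PDE_02100, PDE_04113, PDE_06894 and PDE_09492. Of these only PDE_09492 falls under the rule for named genes, and the others were named after their values were seen. Without replicate 2, 110 of 115 members were called higher against 18.1% of all genes, and with replicate 3 as the only cellulose library 110 of 115 against 17.4% of all genes. The count thus depends on replicate 2, and with replicate 2 kept it also depends on the fit. It was 99 with DESeq2 (12.6% of all genes tested) and 96 when all 12 libraries set the spread (13.4% of all genes tested). The lone library in the last fit is taken to vary like the glucose libraries.

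The study's lists of genes changed between the strains, used here only for names, annotate 25 of the 115 members, and 11 of these have a named role. The lists cover only genes that changed in the study's own comparisons, so a missing name says nothing about a gene. Of the 11, 7 are transporters. No member is annotated as a glycoside hydrolase, against 5 of the 253 other induced genes. The rule itself had dropped 16 genes by name, among them the study's main amylase, cellulase, xylanase and chitinase genes. Those 16, fitted beside the members, had median ratios to the WT mean in cellulose of 0.295, 0.0120 and 0.397 in replicates 1, 2 and 3 labelled Δ*Podot1*. In replicates 1 and 3, 2 of them met the 2/3 minimum. These were PDE_09226 (0.767 and 1.34) and PDE_08094 (0.962 and 1.44), named by the study as endoglucanase Cel5B and xylanase Xyn10A. The lack of glycoside hydrolases among the members thus reflects the dropped names in part.

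Among the transporters, PDE_00607, annotated as the cellodextrin transporter cdt-c, which in filamentous fungi imports cellulose breakdown products, was the most abundant. It had 4253, 26.3 and 5568 FPKM in the Δ*Podot1*-labelled cellulose libraries, against 1108, 1000 and 1478 FPKM in WT. Replicates 1 and 3 were 3.56 and 4.66 times the WT mean and above every WT library. In glucose it had 21.0, 16.2 and 17.8 FPKM in Δ*Podot1* and 6.42, 17.1 and 16.6 FPKM in WT, and the groups overlapped. PDE_00753, annotated as a putative cellodextrin transporter CdtD, had 867, 14.4 and 533 FPKM in the Δ*Podot1*-labelled cellulose libraries, against 131, 170 and 186 FPKM in WT. Its glucose values, 5.2, 3.55 and 3.37 FPKM in Δ*Podot1* and 2.74, 5.05 and 7.34 FPKM in WT, also overlapped. PDE_08035, a sugar transporter by its annotation, had 680, 10 and 233 FPKM in the Δ*Podot1*-labelled cellulose libraries, against 25.03, 34.6 and 61.7 FPKM in WT. For these 3 genes the annotation also lists guanine deaminase as a similar protein, an enzyme of purine breakdown, and the 2 kinds of name conflict.

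PDE_03475, a sugar:H+ symporter of the major facilitator superfamily by its annotation, had the largest ratios of all members. It had 4029, 34.4 and 3535 FPKM in the Δ*Podot1*-labelled cellulose libraries, against 4.64, 2.79 and 290 FPKM in WT. In glucose it had 21.7, 16.6 and 22.3 FPKM in Δ*Podot1* and 0.60, 14.3 and 14.1 FPKM in WT, with every Δ*Podot1* library above every WT library and no call (log2 fold change 0.96 ± 0.76, edgeR adjusted p = 0.40). In WT, replicate 3 in cellulose and replicate 1 in glucose were thus far from the other 2 libraries, and WT replicates 1 and 2 in cellulose were below WT replicates 2 and 3 in glucose. PDE_03571, annotated as a general alpha-glucoside:H+ symporter, the kind that imports maltose in yeast, had 247, 3.17 and 67.6 FPKM in the Δ*Podot1*-labelled cellulose libraries, against 21.3, 32.3 and 15.2 FPKM in WT. It was near 1 FPKM in every glucose library, at 1.32, 1.51 and 1.40 FPKM in Δ*Podot1* and 1.03, 1.99 and 1.23 FPKM in WT.

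The other 2 transporters are not sugar transporters by their annotation, and both were called in glucose; whether they differ from the sugar transporters was not tested. PDE_06680 is annotated as an ABC transporter of subfamily G, the family of the yeast multidrug exporter Snq2. It had 66.7, 98.3 and 100 FPKM in Δ*Podot1* in glucose, against 4.22, 3.25 and 3.74 FPKM in WT, and it was called higher (log2 fold change 4.55 ± 0.26, edgeR adjusted p = 5.2e-05). In cellulose it had 202, 37.3 and 253 FPKM in the Δ*Podot1*-labelled libraries and 79.5, 63.9 and 137 FPKM in WT. PDE_04432, annotated as an amino acid transporter, had 61.4, 48.1 and 37.6 FPKM in Δ*Podot1* in glucose, against 3.07, 2.93 and 4.06 FPKM in WT, and was called higher (log2 fold change 3.82 ± 0.27, edgeR adjusted p = 9.9e-05). In cellulose it had 238, 35.7 and 199 FPKM in the Δ*Podot1*-labelled libraries and 36.9, 32.8 and 229 FPKM in WT, and the groups overlapped. Of the 7 transporters, these 2 were called higher in glucose and none lower, and nothing is read from this count, since a gene has a name here only if the study listed it as changed.

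**Figure D3:**
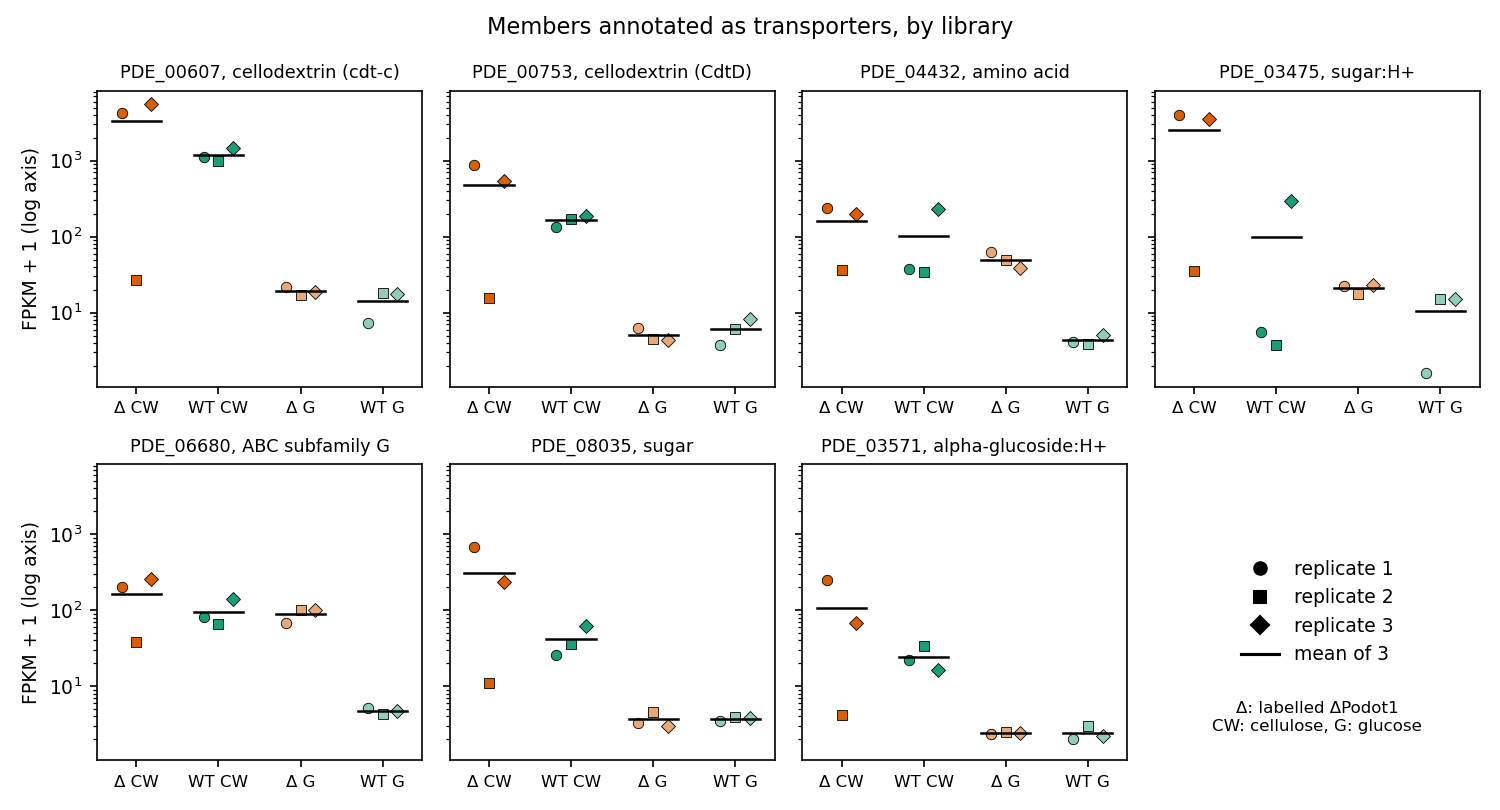
FPKM plus 1, on a log axis, of the 7 members annotated as transporters in every library, with 1 symbol per replicate and a bar at the mean of each group of 3. In glucose PDE_06680 and PDE_04432 are far higher in Δ*Podot1* than in WT, while the cellodextrin transporters PDE_00607 and PDE_00753 overlap between the strains.

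The comparison of Δ*Podot1* with WT in glucose asks whether the members' transcripts differ between the strains in the medium where their mean WT levels were lower. The Δ*Podot1* glucose libraries took no direct part in the choice of members. The WT glucose libraries did, through the induction ratio, which favours low WT values in the members and in the other induced genes alike. The members were split from the other induced genes by their levels in replicates 1 and 3 labelled Δ*Podot1* in cellulose. Replicate 3 lacks *Podot1* transcripts, so a strain difference shared by both media would itself sort genes into these lists. How much of the contrast between the lists in glucose comes from this was not tested. Every Δ*Podot1* library was above every WT library in 50 of the 115 members, 43.5% against 22.4% of all 9274 genes, and below every WT library in 14, 12.2% against 18.7% of all genes. The groups overlapped in the other 51 members. Of the 253 other induced genes, 32 (12.6%) were above and 76 (30.0%) below. The median log2 ratio of mean FPKM plus 1 was 0.45 over the members, -0.12 over the other induced genes and 0.05 over all 9274 genes.

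**Figure D4:**
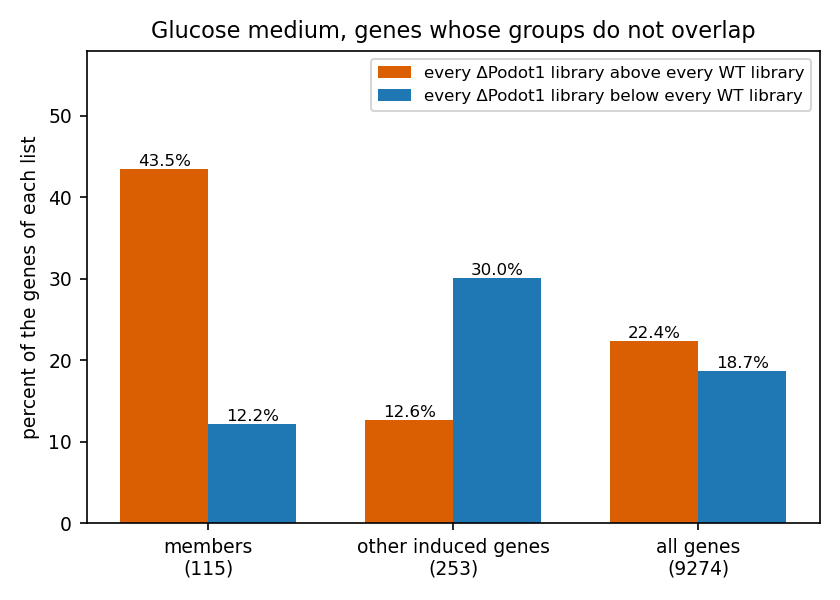
Percent of genes in which the 3 Δ*Podot1* and the 3 WT glucose libraries do not overlap, for the 115 members, the 253 other induced genes and the 9274 genes that averaged 1 FPKM or more. Every Δ*Podot1* library was above every WT library in 43.5%, 12.6% and 22.4% of them, and below in 12.2%, 30.0% and 18.7%.

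By edgeR's quasi-likelihood test on the 6 glucose libraries, 37 of the 103 members tested were called higher in Δ*Podot1*. That is 35.9%, against 10.7% of all genes tested. Called lower were 8 members (7.77%), a share near the 7.22% of all genes tested. Of the 115 members 103 passed the filter on low counts, and the other 12 had at most 7.90 FPKM in any glucose library. Without the filter 114 members were tested. Of these 37 were called higher (32.5%, against 9.99% of all genes tested) and 7 lower (6.14%, against 6.61%). Among the other induced genes, 15 of the 202 tested were called higher and 46 lower. Of the 16 genes dropped by name, 1 was called higher and none lower. The 37 members called higher had log2 fold changes of 1.06 to 6.98, with a median of 2.02, and the 8 called lower -1.07 to -2.78.

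Of the 37 called higher, 11 were among the 20 members not found without WT cellulose replicate 3, so that 26 of the other 95 members were called higher. When all 12 libraries set the spread, replicate 2 labelled Δ*Podot1* in cellulose among them, 12 members were called higher and none lower. Of all genes, 4.83% were called higher and 4.01% lower. In that edgeR fit 27 of the 115 members had an unadjusted p under 0.05. The 12 are PDE_00350, PDE_00760, PDE_00965, PDE_01118, PDE_01119, PDE_01388, PDE_02104, PDE_03776, PDE_04432, PDE_06680, PDE_08077 and PDE_08905, and each was called in every alternative tried for the glucose comparison.

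The largest increases in glucose were in 4 genes that none of the sources gives a settled function. PDE_01119 is annotated both with pseudouridine 5'-phosphatase and with cation transport. It had 99.5, 194 and 89.9 FPKM in Δ*Podot1*, against 1.98, 0.80 and 0.39 FPKM in WT (log2 fold change 6.98 ± 0.53, edgeR adjusted p = 0.00011). The WT values stand on 7, 4 and 2 counts and those of Δ*Podot1* on 479, 938 and 439 counts, so the size of the fold is poorly fixed while the groups lie far apart. Its neighbour by number, the hypothetical protein PDE_01118, had 1124, 943 and 240 FPKM in Δ*Podot1*, against 33.7, 10.3 and 7.79 FPKM in WT (log2 fold change 5.51 ± 0.75, edgeR adjusted p = 0.0016). In replicates 1 and 2 of Δ*Podot1* in glucose it thus exceeded every WT cellulose library, which had 231, 259 and 402 FPKM. In cellulose its labelled Δ*Podot1* libraries had 1091, 155 and 1518 FPKM.

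PDE_08905 had 35.0, 41.5 and 86.7 FPKM in Δ*Podot1* in glucose, against 0.80, 1.51 and 0.73 FPKM in WT (log2 fold change 5.66 ± 0.53, edgeR adjusted p = 0.00028). All 3 values in Δ*Podot1* in glucose were above the 3 values of WT in cellulose. PDE_00760, a hypothetical protein, had 45.6, 42.4 and 33.99 FPKM in Δ*Podot1*, against 1.92, 0.68 and 0.49 FPKM in WT (log2 fold change 5.36 ± 0.40, edgeR adjusted p = 0.00011). Its cellulose values were 235, 12.9 and 88.4 FPKM in the Δ*Podot1*-labelled libraries and 16.1, 25.9 and 43.2 FPKM in WT. For these 4 genes the groups did not overlap in glucose, and the two-sided exact permutation test gave 0.1, the smallest p that 3 against 3 allows.

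Of the 12 genes called in every alternative, 4 more are hypothetical proteins without a named role, given here after their values were seen. PDE_03776 had 367, 262 and 305 FPKM in Δ*Podot1* in glucose, against 36.2, 22.4 and 21.2 FPKM in WT (log2 fold change 3.55 ± 0.25, edgeR adjusted p = 8.6e-05). PDE_00350 had 286, 238 and 282 FPKM in Δ*Podot1* in glucose, against 58.1, 7.53 and 13.1 FPKM in WT (log2 fold change 3.43 ± 0.62, edgeR adjusted p = 0.0056). Both were uneven in WT in cellulose, where PDE_03776 had 61.2, 123 and 753 FPKM and PDE_00350 had 656, 168 and 111 FPKM, and neither is a member without WT cellulose replicate 3. For both genes the Δ*Podot1* level in glucose overlapped that of the Δ*Podot1*-labelled libraries in cellulose, which was 572, 42.3 and 258 FPKM for PDE_03776 and 260, 114 and 235 FPKM for PDE_00350. PDE_02104 had 119, 135 and 162 FPKM in Δ*Podot1* in glucose, against 26.7, 8.76 and 12.6 FPKM in WT (log2 fold change 3.14 ± 0.37, edgeR adjusted p = 0.00085). PDE_08077 had 123, 123 and 103 FPKM in Δ*Podot1* in glucose, against 33.5, 14.5 and 15.95 FPKM in WT (log2 fold change 2.46 ± 0.29, edgeR adjusted p = 0.0008). In both genes replicates 1 and 3 labelled Δ*Podot1* in cellulose lay above the Δ*Podot1* glucose libraries and replicate 2 below them. PDE_08077 is also not a member without WT cellulose replicate 3, with 88.7, 100 and 452 FPKM in WT in cellulose.

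Enzymes of amino sugar and amino acid breakdown were also among the members called higher in glucose. PDE_00965 is annotated as N-acetylglucosamine-6-phosphate deacetylase, which acts in the breakdown of the chitin sugar N-acetylglucosamine. It had 26.1, 28.4 and 24.0 FPKM in Δ*Podot1*, against 3.28, 3.02 and 2.30 FPKM in WT (log2 fold change 3.16 ± 0.23, edgeR adjusted p = 0.0001). Its cellulose values were 106, 20.7 and 110 FPKM in the Δ*Podot1*-labelled libraries and 75.6, 43.4 and 69.1 FPKM in WT. PDE_05640, annotated as L-serine/L-threonine ammonia-lyase, which deaminates these amino acids, had 36.5, 26.0 and 5.08 FPKM in Δ*Podot1* in glucose, against 2.33, 3.59 and 3.68 FPKM in WT. It was called higher (log2 fold change 2.73 ± 0.64, edgeR adjusted p = 0.017), but replicate 3 was close to WT and the call was lost in 6 of 15 alternatives, with an adjusted p of up to 0.14. In cellulose it had 426, 8.35 and 411 FPKM in the Δ*Podot1*-labelled libraries, against 39.2, 54.3 and 44.4 FPKM in WT. PDE_06715 was called higher too (log2 fold change 2.32 ± 0.29, edgeR adjusted p = 0.0011).

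Members called lower in Δ*Podot1* in glucose, whose share was near that of all genes, included the 2 most abundant in cellulose. PDE_09832, whose values are given above, had a log2 fold change of -2.63 ± 0.35 (edgeR adjusted p = 0.0016), and PDE_05075, at 146, 178 and 189 FPKM in Δ*Podot1* and 416, 369 and 353 FPKM in WT, one of -1.17 ± 0.20 (edgeR adjusted p = 0.0047). PDE_06558 is a hypothetical protein whose annotation lists both a DNA cross-link repair protein and the U6 snRNA-associated protein LSm2 as similar. It had 5.95, 8.35 and 6.11 FPKM in Δ*Podot1*, against 43.3, 40.9 and 47.4 FPKM in WT (log2 fold change -2.72 ± 0.22, edgeR adjusted p = 0.00016). In cellulose the same gene had 459, 8.40 and 650 FPKM in the Δ*Podot1*-labelled libraries and 470, 575 and 541 FPKM in WT, so that replicates 1 and 3 lay on both sides of WT.

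PDE_04474, without annotation, had the largest decrease, with 1.93, 2.19 and 1.63 FPKM in Δ*Podot1* in glucose, against 8.97, 14.7 and 14.6 FPKM in WT (log2 fold change -2.78 ± 0.35, edgeR adjusted p = 0.0012). In cellulose it had 319, 4.33 and 301 FPKM in the Δ*Podot1*-labelled libraries, against 161, 94.7 and 76.4 FPKM in WT, with replicates 1 and 3 above every WT library. PDE_05450 had 3.03, 1.80 and 1.21 FPKM in Δ*Podot1* in glucose, against 7.24, 6.09 and 6.19 FPKM in WT (log2 fold change -1.73 ± 0.32, edgeR adjusted p = 0.0066). PDE_05527 had 5.84, 4.21 and 4.70 FPKM in Δ*Podot1*, against 10.3, 14.3 and 13.2 FPKM in WT (log2 fold change -1.40 ± 0.27, edgeR adjusted p = 0.0071). In each of these genes the groups did not overlap in glucose.

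**Figure D5:**
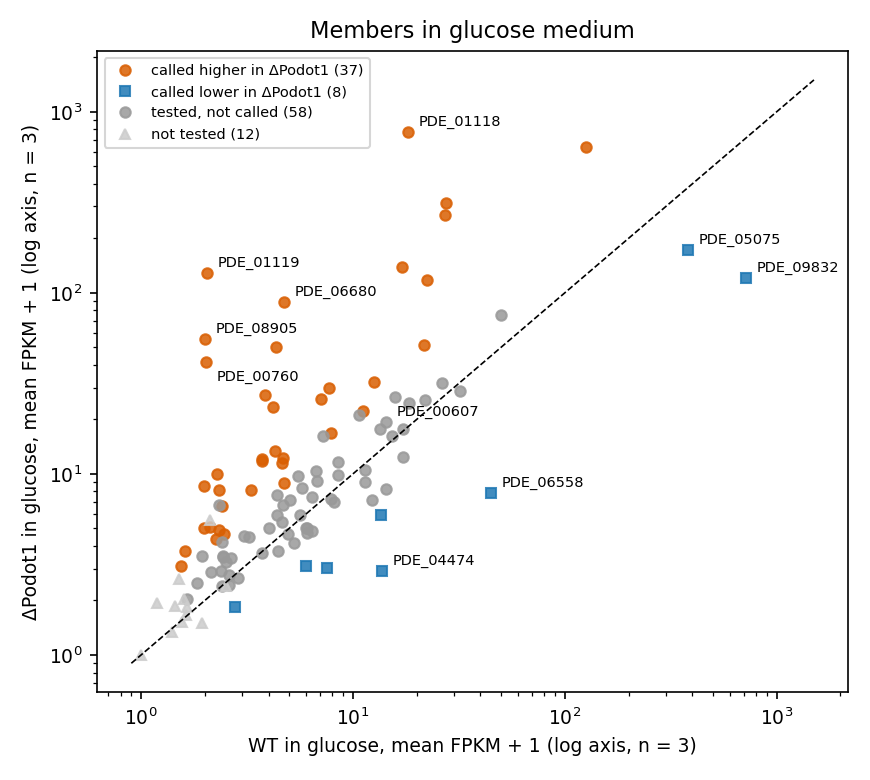
Mean FPKM plus 1 of the 115 members in Δ*Podot1* in glucose (vertical) against WT in glucose (horizontal), both on log axes with n = 3 libraries, and a dashed line at equality. The 37 members called higher lie above the line, and PDE_09832 and PDE_05075, the 2 members with the highest WT level, are among the 8 called lower.

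Other abundant members were not called in glucose. PDE_03990 had 34.4, 30.1 and 6.77 FPKM in Δ*Podot1* and 32.7, 10.5 and 8.92 FPKM in WT (log2 fold change 0.49 ± 0.63, edgeR adjusted p = 0.61). PDE_00579, at 16.6, 14.6 and 14.3 FPKM in Δ*Podot1* and 12.8, 13.0 and 17.1 FPKM in WT, had a log2 fold change of 0.04 ± 0.23 (edgeR adjusted p = 0.92). PDE_00607 had 0.38 ± 0.38 (edgeR adjusted p = 0.51) and PDE_03044 -0.49 ± 0.29 (edgeR adjusted p = 0.26). Tests that miss the threshold do not show that the strains are alike.

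The members include 5 pairs of consecutive gene numbers, and the calls in glucose differed among the pairs. PDE_01118 and PDE_01119 were both called higher in glucose. Of PDE_08879 and PDE_08880, only PDE_08880, a hypothetical protein, was called higher. It had 8.64, 10.5 and 7.78 FPKM in Δ*Podot1* and 0.11, 1.51 and 2.24 FPKM in WT (log2 fold change 2.66 ± 0.62, edgeR adjusted p = 0.017). PDE_08879 had 3.60, 1.79 and 2.05 FPKM in Δ*Podot1* and 1.31, 1.46 and 1.54 FPKM in WT (log2 fold change 0.73 ± 0.39, edgeR adjusted p = 0.22). The difference between the neighbours was not tested. In cellulose PDE_08880 had 680, 8.42 and 631 FPKM in the Δ*Podot1*-labelled libraries, against 49.9, 55.0 and 59.4 FPKM in WT, and PDE_08879 had 284, 2.59 and 415 FPKM, against 318, 306 and 216 FPKM in WT. The pairs PDE_00094 and PDE_00095, PDE_05998 and PDE_05999, and PDE_09491 and PDE_09492 had no call in glucose. PDE_05999 came nearest, at 25.3, 26.6 and 24.6 FPKM in Δ*Podot1* and 11.6, 16.7 and 15.9 FPKM in WT (log2 fold change 0.74 ± 0.23, edgeR adjusted p = 0.051). In cellulose PDE_09491 and PDE_09492 were high in the same libraries, with 102, 12.3 and 63.5 FPKM and 186, 11.9 and 131 FPKM in the Δ*Podot1*-labelled libraries, against 13.4, 13.2 and 43.9 FPKM and 17.7, 22.2 and 62.4 FPKM in WT.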

How the data were processed

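RNA-seq values of 12 libraries were used, grouped by the sample labels. The authors deposited 1 table per library, with an estimated count, not normalized, and an FPKM value per gene, normalized for gene length and mapped reads; 0.713% of the 114201 estimated counts were not whole (tolerance 1e-09). The methods describe BGISEQ-500 sequencing with mapping by HISAT and Bowtie2, while the labels describe a tag protocol, and the versions and the genome build used for mapping are not stated beside them. Preculture took 22 h by the methods and 24 h by the labels. Reads of genes with nearly the same sequence can be shared out between them by such counting.

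The counts were rounded and tested with edgeR 4.0.16 under R 4.3.3 (filterByExpr, TMM, glmQLFit, glmQLFTest) on the 6 libraries of the groups compared. Calls needed a Benjamini-Hochberg adjusted p under 0.05, over all genes tested, and at least 2-fold. Each SE was derived from the fold change and its F statistic and is approximate. DESeq2 1.42.0 and limma 3.58.1 on log2(FPKM + 1) or log2(FPKM + 0.1) were alternatives, with other filters, scalings and libraries and each library left out. In a simulation, 97.0% of 200 genes set to change 4-fold were recovered for Δ*Podot1* against WT in glucose. For cellulose against glucose, recovery was 97.0% in WT but only 34.5% in the libraries labelled Δ*Podot1*. Of all calls made, 3.48%, 3.96% and 1.43% fell on unchanged genes in these comparisons. Few calls between media in the labelled libraries thus do not show that genes were unchanged. The simulation covered only genes above a floor on the mean count, 7983 genes for the glucose comparison, where 8479 were tested. Its spread followed the trend over all genes. Recovery for members with low counts in glucose is therefore not known.

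Named genes are the 8 members with the highest WT mean in cellulose, the 6 with the largest induction ratio, those with a named role, the 4 called with the largest and the 4 with the smallest log2 fold change in glucose, the 3 on each side of each threshold, the 4 highest in replicate 2 labelled Δ*Podot1* in cellulose relative to WT, and those at consecutive numbers. The members and lists were chosen with earlier results of these data known. Columns and tables of the study's own comparisons gave gene names only. No sequences or positions are shown, since the reference used here shares no gene number with the files. The precision is that of 3 biological replicates per group.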

Additional observations from a re-analysis of the deposited data

Results flagged for a closer look

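PDE_01388, a member without annotation, differed between the labelled strains in opposite directions in the 2 media, with no overlap in either. In glucose it had 10.1, 8.85 and 3.73 FPKM in Δ*Podot1*, against 0.78, 0.87 and 1.30 FPKM in WT, a log2 ratio of the means of 2.94. In cellulose it had 36.7, 30.1 and 32.9 FPKM in the libraries labelled Δ*Podot1*, against 39.7, 57.3 and 42.4 FPKM in WT, a log2 ratio of -0.48. It was the only member of the 115 with this pattern. The share of all genes with the pattern was not worked out, and the rule used cellulose replicates 1 and 3. Nothing is read from this count. The difference between the media was not tested, and 2 of the 3 cellulose libraries hold *Podot1* reads.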

How the results depend on the processing

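In glucose, the 37 members called higher became 12 when all 12 libraries set the spread (against 4.83% of all genes tested). With 1 library left out the count was 22 to 39 (6.83% to 12.9% of all genes). The lowest counts were 22, with Δ*Podot1* replicate 2 left out (6.83%), and 23, with WT replicate 2 (6.88%) or WT replicate 3 (7.43%) left out. The 8 members called lower became 0 with all 12 libraries (4.01% of all genes). In that edgeR fit 27 members were at an unadjusted p under 0.05, in either direction. With 1 library left out 6 to 7 were called lower (4.87% to 7.83% of all genes). In the other alternatives, DESeq2 and limma included, 27 to 39 were called higher (8.69% to 13% of all genes) and 6 to 10 lower (6.02% to 9.65%).

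In the libraries labelled Δ*Podot1*, cellulose against glucose, 4 members were called higher (1.41% of all genes tested). The count became 99 with DESeq2 (12.6% of all genes), 0 with limma on log2(FPKM + 1) (0.289%) and 96 with all 12 libraries (13.4%). It was 110 with 11 libraries, without replicate 2 of the cellulose group (20.5%). With 1 library left out the count was 0 to 110 (0% to 18.1% of all genes). The count was 110 without cellulose replicate 2 (18.1%) and 3 without replicate 3 (3.85%). It was 0 without replicate 1 or without any 1 of the glucose libraries (0% of all genes). It was also 110 with replicate 3 as the only cellulose library, a fit chosen after seeing the data. Beside the counts of 0, the unadjusted p was under 0.05 for 81 to 89 members in those fits and for 96 in the fit that gave 4.

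In WT, cellulose against glucose, 111 to 114 members were called higher in every alternative, against 18.6% to 25.5% of all genes tested. The number of members was 2 (PDE_01119 and PDE_08905) when all 3 libraries labelled Δ*Podot1* in cellulose had to meet the 2/3 minimum, 108 to 124 with 1 WT library left out, 133 with TPM and 120 without adding 1.

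With the replicate number as a block, 34 members were called higher (10.5% of all genes tested) and 7 lower (6.89%) in glucose. Between media in the labelled libraries 0 members were called higher (0% of all genes), with 69 at an unadjusted p under 0.05 in that edgeR fit. Deviations of same-numbered glucose libraries from their group means correlated at -0.0975 to 0.131, against -0.176 to 0.167 for differently numbered ones. The values thus show no pairing by number, but they cannot exclude a shared culture or batch.

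No direction of a called named member reversed in glucose. The identity of 2 of 3 cellulose libraries labelled Δ*Podot1* limits every cellulose value of that label, and low counts in WT in glucose limit the folds.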
